A study of Sus scrofa with 24 samples.

Results

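Natural mating was compared with an infusion of semen extender in the pig utero-tubal junction (UTJ), the narrow passage between uterine horn and oviduct, by the RNA levels of 12365 genes. The members are the 16 arrays of the 24 in the series that carry these labels, 8 titled as the first treatment (sows mated with a boar) and 8 titled control (sows given 50 ml of a semen extender, Beltsville Thawing Solution). The remaining 8 arrays, of sows infused with seminal plasma, entered the model to estimate the spread and are not described here. All sows were Swedish Landrace, weaned and in oestrus by the study's methods, and tissue was taken within 24 h of treatment. By the methods each group held 4 sows, sampled on the left and on the right side. No source used here ties arrays to sows, so arrays were the units and p-values over them are too small. The methods call the control females unmated and non-inseminated in one place and extender-treated in another, and the extender is what the labels give. The platform was the Affymetrix Porcine Gene 1.0 ST array. Values are log2 intensities as the authors derived them, so a difference of 1 is a doubling of signal, and levels of different genes cannot be set against each other because each probe set has its own response.

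The UTJ holds the sperm reservoir of the sow. Its mucosa carries ciliated and secretory epithelial cells over a vascular stroma and a muscle coat, and sperm bind to the epithelium until they are released around ovulation. Semen carries foreign cells and proteins into the tract, and uterine tissue is known to respond to them with inflammation followed by clearance and tolerance. In a piece of whole tissue, fewer cells of a type and less RNA per cell cannot be told apart.

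Of 27558 probe sets, 13327 carry 1 gene symbol, 357 several and 13874 none in the annotation used, and where a gene had several probe sets (902 genes) the one with the highest mean stood for it. The groups follow the labels alone. For part of the genes that the study lists, the direction by these labels opposes the one given there, so each sign below means arrays labelled mated minus arrays labelled control. Array medians were 5.75 to 5.87 in mated and 5.80 to 5.99 in control arrays. The SD over probe sets was 2.04 to 2.13 in mated arrays, 2.06 to 2.13 in 7 control arrays and 1.91 in control replicate 1. The tissue label could not be checked by detection calls, which were not used here. The mean of the smooth muscle list was 10.4 and that of the secretory epithelium list 7.92, which does not give the share of either tissue, since probe sets differ in response. In the Y-linked list 0 genes were measured, so sperm or male cells could not be followed through them.

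No gene passed the test. In limma, 0 of 12365 genes (0%) had an adjusted p under 0.05 and the lowest adjusted p was 0.203. At an unadjusted p under 0.05 there were 1265 genes (10.2%), 361 of them higher (2.92%) and 904 lower (7.31%) in mated arrays. Over all probe sets 793 were higher (2.88%) and 2349 lower (8.52%) at that threshold. The words higher and lower below therefore give the sign of a difference and not a call. Differences were small. The median over all genes was -0.04, with 41.5% of genes above 0 and 58.5% below, only 14 genes differed by 1 or more and 4 by -1 or less, and 7 and 3 of these had an unadjusted p under 0.05. The balance of directions moved with the scaling. With array medians made equal the same counts were 735 higher and 427 lower, with cyclic loess between arrays 568 and 547, and with a second quantile normalization 541 and 600. Leaving out mated replicate 7 gave 238 higher genes, the lowest count with 1 array left out, and leaving out control replicate 1 gave 609 lower genes.

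The direction of a gene's difference went with its level. Among the 3397 genes with a mean log2 level below 5, where much of the signal is background, 40 were higher (1.18%) and 408 lower (12%) at an unadjusted p under 0.05. Among the other 8968 genes 321 were higher (3.58%) and 496 lower (5.53%). Control replicate 1 moved with this pattern. The median of the low genes was 3.80 to 3.98 in mated arrays, 3.83 to 4.04 in the other 7 control arrays and 4.31 in that array. Without it the low genes numbered 55 higher and 225 lower, and the others 258 higher and 384 lower. Genes between 4 and 5 were lower most often (14.2%), and genes between 7 and 8 higher most often (4.65%). Any gene below 5 that is named below is to be read against 12%, not against 7.31%. Counts within the lists below stand beside 2.92% higher and 7.31% lower over all genes.

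**Figure D1:**
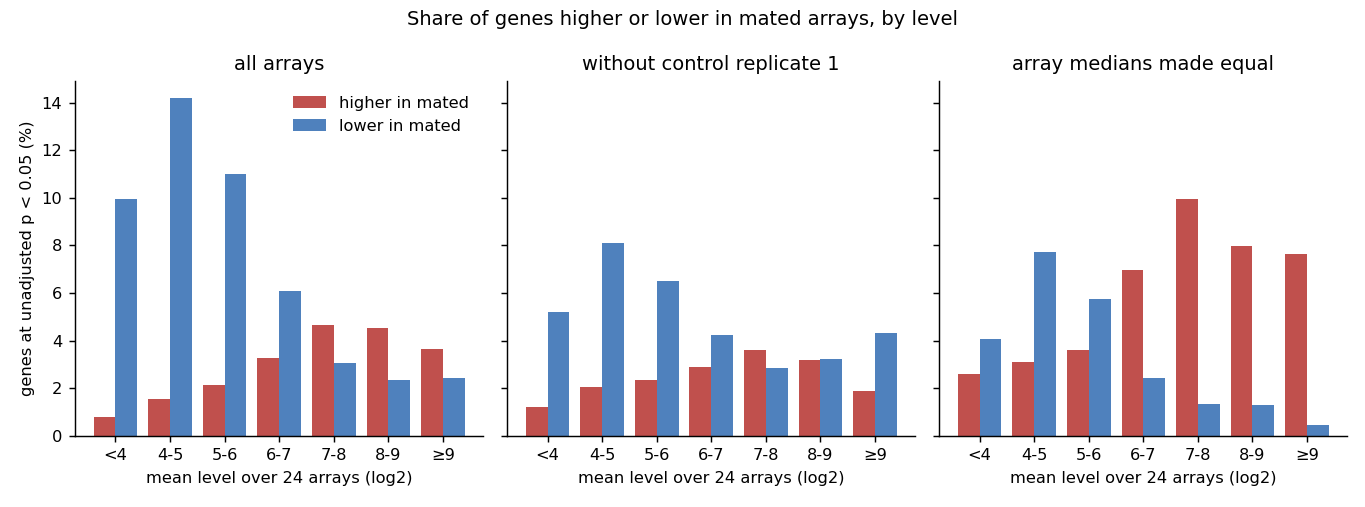
Bars give the percent of genes at an unadjusted p under 0.05 (vertical axis) that were higher or lower in mated arrays, by the mean log2 level of the gene over 24 arrays (horizontal axis), for all arrays, without control replicate 1 and with array medians made equal. In the left panel the lower share peaks at 14.2% between 4 and 5 and is 2.43% from 9 up, and it peaks at 7.74% with equal medians.

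Full separation of the groups was rare. In 8 genes (0.0647%) no mated array overlapped a control array, 1 of them higher (0.00809%) and 7 lower (0.0566%). Over all probe sets 2 were higher (0.00726%) and 14 lower (0.0508%) without overlap. With 1 array fewer, which lowers the bar, the genes numbered up to 5 higher (without mated replicate 3) and up to 23 lower (without control replicate 5). MORN4, a MORN repeat protein that binds class III myosins, was the gene that stood higher. Its lowest, median and highest levels were 6.16, 6.25 and 6.48 in mated arrays, against 5.15, 5.98 and 6.12 in control arrays. The gap between the groups was narrow, because control replicates 8 and 1 reached 6.12 and 6.08 while control replicate 7 was far below at 5.15. The difference was 0.47 (SE 0.13, limma adjusted p = 0.310).

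LEP, the adipocyte hormone leptin, was at 3.35, 3.50 and 3.58 (lowest, median, highest) in mated arrays and at 3.70, 3.80 and 4.03 in control arrays, a difference of -0.33 (SE 0.08). PCK1, the cytosolic enzyme that commits oxaloacetate to gluconeogenesis, was at 4.06, 4.23 and 4.30 in mated arrays and at 4.39, 4.61 and 5.13 in control arrays, a difference of -0.44 (SE 0.10). Control replicate 1 held the highest value of both, and without it the differences were -0.30 for LEP and -0.37 for PCK1. MORN4, LEP and PCK1 stayed without overlap when array medians were made equal, under cyclic loess and after a second quantile normalization.

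The others lost the separation under 1 or more of these scalings. CPNE9, a copine that binds phospholipids in the presence of calcium, was at 4.15, 4.56 and 4.64 in mated arrays and at 4.69, 4.86 and 5.24 in control arrays. KRT34, a keratin of the hair shaft, was at 4.19, 4.32 and 4.56 in mated arrays and at 4.59, 4.76 and 5.24 in control arrays, again with control replicate 1 on top. CREBZF, a basic leucine zipper protein that works with other factors in stress responses, was the only named gene on the lower side above a level of 6. It was at 6.55, 7.20 and 7.24 in mated arrays and at 7.27, 7.38 and 7.53 in control arrays, with mated replicate 7 far below the rest at 6.55. The other 2 are known only by LOC numbers.

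**Figure D2:**
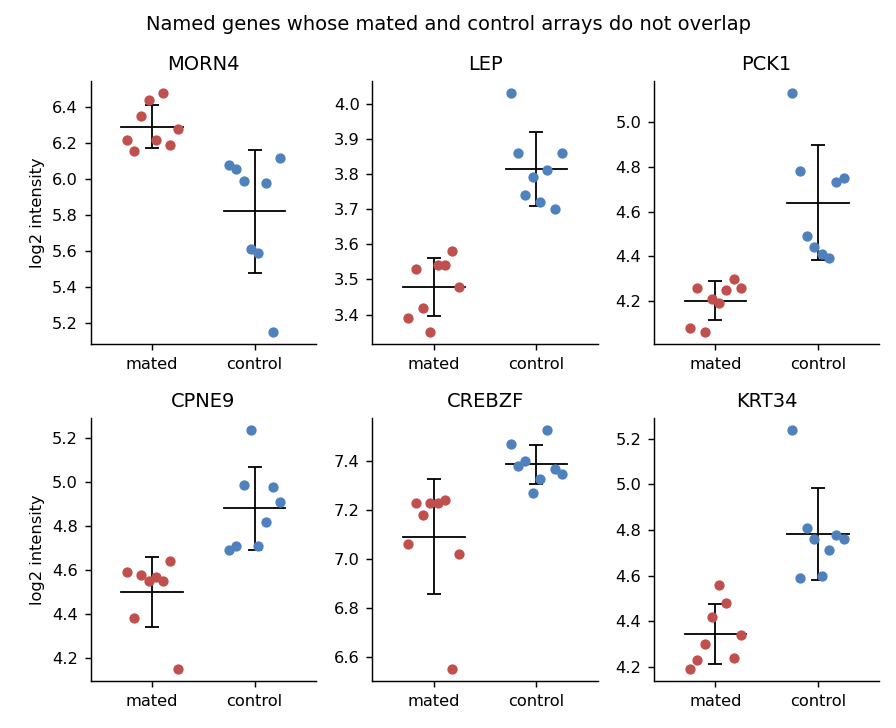
Points are the log2 intensities (vertical axes, each with its own range) of 8 mated and 8 control arrays for 6 named genes, with the mean (line) and SD (bar) of each group. The lowest mated value of MORN4 (6.16) lies just above the highest control value (6.12), and the other 5 genes lie lower in every mated array.

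The 12 genes with the lowest p on the higher side included receptors, sorting and degradation factors and transcription factors. Levels in mated arrays lay above the control median in 8 of 8 arrays for all of them but ZNF404, a zinc finger gene, which was above it in 7. STAM, an adaptor that sorts ubiquitinated receptors to endosomes, averaged 7.80 ± 0.18 in mated and 7.46 ± 0.15 in control arrays (mean ± SD), a difference of 0.35 (SE 0.08). BTRC, the F-box protein that marks beta-catenin and inhibitors of NF-kappa-B for destruction, averaged 7.90 ± 0.14 in mated and 7.50 ± 0.24 in control arrays, a difference of 0.41 (SE 0.10). HPS5, a subunit of a complex that forms lysosome-related organelles, differed by 0.32 (SE 0.08). Control replicate 1 was the lowest array of all 16 in STAM, BTRC and HPS5, at 7.11, 7.05 and 7.12, and without it their differences were 0.30, 0.34 and 0.30.

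HRH1, the histamine H1 receptor, was at 6.76, 7.02 and 7.99 (lowest, median, highest) in mated arrays, against 6.33, 6.57 and 6.91 in control arrays. Mated replicate 5 was far above the other mated arrays, which reached 7.30, and control replicates 1 and 2 overlapped the lower mated arrays. The difference was 0.51 (SE 0.13, limma adjusted p = 0.268). ETV1, an ETS transcription factor, differed by 0.51 (SE 0.13) and MDFIC, a regulator of transcription factors, by 0.60 (SE 0.15). CXHXorf36, an open reading frame named after its human counterpart on the X chromosome, differed by 0.79 (SE 0.19), with 6.60 ± 0.39 in mated and 5.80 ± 0.42 in control arrays. LRRTM4, a synaptic adhesion protein, was at 5.31, 5.63 and 6.08 in mated arrays and at 4.58, 5.15 and 5.48 in control arrays, where replicates 1 and 3 were lowest. TSPAN12, a tetraspanin that acts with the receptor FZD4 in retinal vessels of mice, differed by 0.40 (SE 0.09), and FZD4 itself by 0.32 (SE 0.14, limma adjusted p = 0.402).

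On the lower side the genes with the lowest p were mostly at low levels. TERB2, a meiotic telomere protein, was at 2.53, 2.59 and 3.03 in mated arrays and at 2.79, 3.09 and 3.27 in control arrays. The overlap came from mated replicate 2 alone, which was at 3.03 while the other 7 mated arrays lay between 2.53 and 2.63. FBP2, the muscle form of fructose bisphosphatase, was at 3.78, 4.10 and 4.54 in mated arrays and at 4.37, 4.56 and 4.84 in control arrays. OTP, a homeobox factor of hypothalamic neurons, differed by -0.36 (SE 0.08), and P2RY11, a receptor for extracellular ATP, by -0.40 (SE 0.10). All 8 mated arrays were below the control median in these 4 genes.

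SPTSSA and MIR324 were the genes of that set with levels above 7. SPTSSA, the small subunit of the enzyme that starts sphingolipid synthesis, was at 7.73, 7.94 and 8.35 in mated arrays and at 8.10, 8.34 and 8.51 in control arrays. Mated replicate 4, at 8.35, was the array that lay above the control median. The difference of -0.37 (SE 0.09) had an adjusted p of 0.203 in limma. MIR324, a micro-RNA gene, averaged 7.72 ± 0.21 in mated and 8.23 ± 0.36 in control arrays, a difference of -0.51 (SE 0.13, limma adjusted p = 0.261).

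The largest differences on the higher side at an unadjusted p under 0.05 were in genes of varied function. TNC, the matrix protein tenascin-C, was at 8.64, 9.46 and 10.61 in mated arrays and at 7.16, 8.29 and 9.45 in control arrays, a difference of 1.24 (SE 0.38) or 2.36-fold. Control replicates 7 and 5, at 9.45 and 8.65, overlapped mated arrays, and the other 6 control arrays did not. MFAP5, a glycoprotein of elastic microfibrils, was at 7.27, 7.95 and 9.01 in mated arrays and at 6.30, 7.19 and 8.08 in control arrays, a difference of 0.96 (SE 0.27). SCN7A, a sodium channel that senses extracellular sodium, was at 3.62, 4.79 and 5.88 in mated arrays and at 3.48, 3.77 and 4.47 in control arrays. Mated replicates 1, 4, 6, 7 and 8 were above every control array of SCN7A, while replicates 2, 3 and 5 were not. SLC38A11, an amino acid transporter, showed a similar division, with mated replicates 1, 2, 4, 6 and 7 above every control array and replicates 3, 5 and 8 among them.

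RGS4, which shortens signals of G protein-coupled receptors, differed by 1.23 (SE 0.50), TRIM36, a RING-type ubiquitin ligase, by 1.16 (SE 0.44) and TACR3, the neurokinin B receptor, by 1.04 (SE 0.48). UQCR10, a small subunit of respiratory complex III, differed by 1.03 (SE 0.45), with mated arrays from 5.23 to 7.08 and control arrays from 3.82 to 7.55. The control arrays of UQCR10 were spread widely, with replicates 1, 3 and 7 between 6.95 and 7.55 and the others at 5.40 or below. Without control replicate 1, RGS4 differed by 1.01 (limma unadjusted p = 0.0544) and TACR3 by 0.89 (limma unadjusted p = 0.0856), and without control replicates 6 and 8 UQCR10 differed by 0.68 (limma unadjusted p = 0.142). Other arrays moved UQCR10 the other way, to 1.30 without control replicate 1 and to 1.80 without mated replicate 3 and control replicates 1 and 3.

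GABRP, the pi subunit of the GABA-A receptor and an epithelial gene of the reproductive tract, had the largest difference on the lower side. It was at 3.97, 5.64 and 7.52 in mated arrays and at 5.82, 7.84 and 9.28 in control arrays, so all 8 mated arrays were below the control median. The difference was -1.86 (SE 0.56, limma adjusted p = 0.326), or 3.64-fold. The groups overlapped through control replicates 2, 5 and 7, at 6.72, 5.82 and 6.13. DCC, the netrin receptor, was at 3.61, 5.70 and 7.38 in mated arrays and at 6.18, 6.72 and 7.72 in control arrays, a difference of -1.20 (SE 0.39). TAF7, a subunit of the general transcription factor TFIID, was at 6.56, 7.65 and 8.66 in mated arrays and at 7.90, 8.67 and 9.40 in control arrays, a difference of -1.09 (SE 0.35).

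PLAU, urokinase, the activator of plasminogen, was at 6.13, 6.68 and 8.12 in mated arrays and at 6.09, 7.65 and 9.14 in control arrays. The control arrays formed separate sets, with replicates 1, 3, 6 and 8 at 8.38 or above and replicates 2, 4, 5 and 7 at 6.92 or below. The difference was -0.84 (SE 0.36), and -0.62 without control replicate 1 (limma unadjusted p = 0.0854). GSTM3, a glutathione transferase, differed by -0.88 (SE 0.36) with 8 of 8 mated arrays below the control median, and DCDC2, a doublecortin protein of cilia, by -0.81 (SE 0.33), for which mated replicates 3 and 4 were lowest at 6.09 and 6.16. SORL1, a sorting receptor of endosomes, differed by -0.80 (-0.67 without control replicate 1, limma unadjusted p = 0.106, and -0.52 also without control replicate 3 and mated replicate 3), NFIL3, a transcription factor of the body clock, by -0.73, and UNC93A, a membrane protein of epithelia, by -0.71. INMT, which methylates indole amines, was at 5.56 or below in all 8 mated and 6 control arrays and at 7.58 and 7.00 in control replicates 1 and 3. Its difference of -0.75 became -0.29 without those controls and mated replicate 3.

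**Figure D3:**
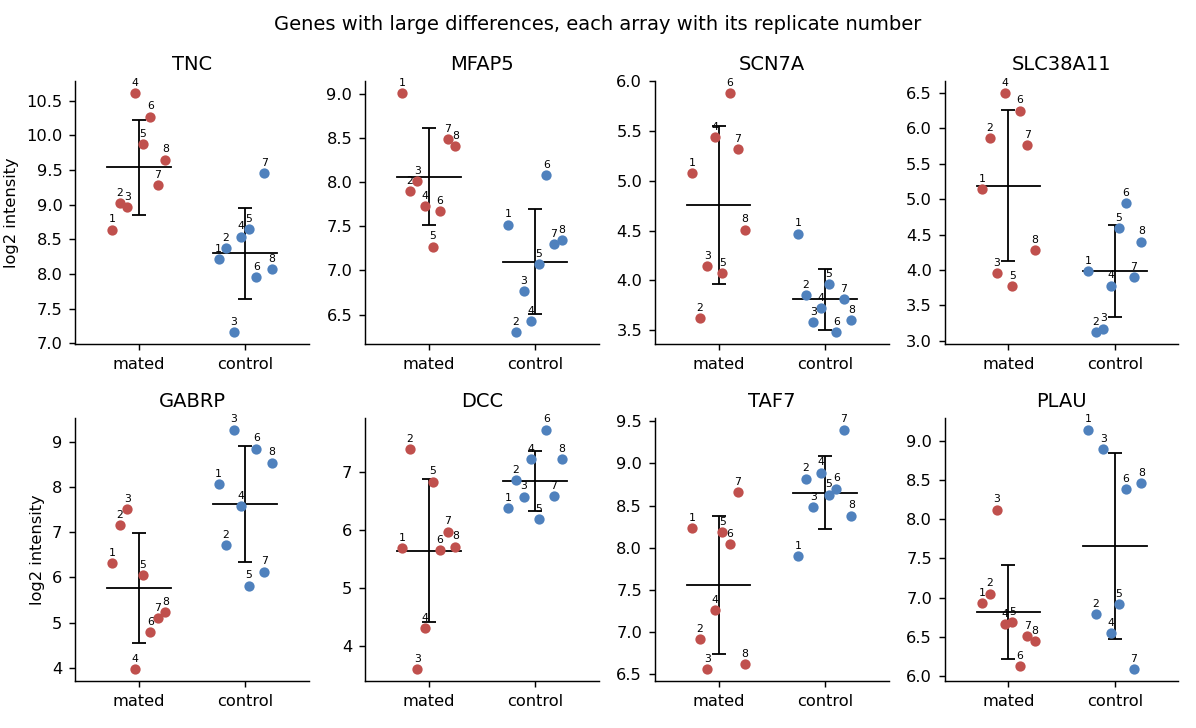
Points are log2 intensities (vertical axes, each with its own range) of the 8 mated and 8 control arrays for 8 genes with large differences, numbered by replicate, with the mean (line) and SD (bar) of each group. Groups overlap in every panel, and in PLAU control replicates 1, 3, 6 and 8 stand apart from the other control arrays.

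Some of the largest differences by value had no low p, because arrays within a group differed more than the groups did. AGTR2, the angiotensin II type 2 receptor, chosen after its values were seen, averaged 9.94 ± 1.90 in mated and 8.48 ± 2.68 in control arrays, a difference of 1.46 (limma unadjusted p = 0.128). In mated replicate 3 it was at 5.44 and in control replicates 1 and 3 at 4.81 and 3.62, while the other 13 arrays lay at 9.45 or above. The same 3 arrays were the lowest in OSTN, the secreted peptide osteocrin, also chosen after its values were seen. OSTN was at 2.88 in mated replicate 3, at 3.92 and 3.91 in control replicates 1 and 3, and at 6.10 or above elsewhere. These 3 arrays were also the lowest in RGS4 and TRIM36. Without these 3 arrays AGTR2 differed by 0.68, OSTN by 1.34, RGS4 by 0.90 and TRIM36 by 1.12. TACR3 differed by 0.51 without them (limma unadjusted p = 0.326). OVGP1, the oviduct-specific glycoprotein secreted by oviduct epithelium, had the largest difference by value of all genes on the higher side, 1.57 (SE 1.03, limma unadjusted p = 0.140). It was at 5.53, 9.03 and 11.85 in mated arrays and at 4.49, 6.30 and 11.88 in control arrays, so both groups ran over nearly the whole range.

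Vessel genes lay above the median of all genes. Of 19 measured genes of the blood vessel endothelium 11 were above 0, 5 were higher and 1 lower at an unadjusted p under 0.05, and their median was 0.16, against -0.04 over all genes. With each gene centred on its mean in the control arrays, the groups overlapped. Means of that list were -0.14 to 0.34 in mated and -0.24 to 0.24 in control arrays. CD34, a sialomucin of endothelial and stem cells, averaged 8.24 ± 0.31 in mated and 7.83 ± 0.29 in control arrays, and SELP, the adhesion receptor P-selectin, 7.04 ± 0.44 in mated and 6.49 ± 0.42 in control arrays. PECAM1, an adhesion protein of endothelial junctions, was at 8.61, 8.78 and 9.21 in mated arrays and at 8.06, 8.53 and 9.09 in control arrays. TEK, the angiopoietin receptor, was at 7.34, 7.67 and 8.08 in mated arrays and at 6.70, 7.24 and 7.92 in control arrays. Control replicate 5 was the highest control array in both, and the other 7 control arrays of PECAM1 were at or below 8.60, under every mated array. Without control replicates 6 and 8 TEK differed by 0.29 (limma unadjusted p = 0.0508), while PECAM1, CD34 and SELP stayed at an unadjusted p under 0.05. The 1 lower gene was ROBO4, an endothelial guidance receptor, with a difference of -0.22 (chosen after its values were seen). Without control replicate 1 ROBO4 differed by -0.18 (limma unadjusted p = 0.0696). All 6 genes of the lymphatic list were above 0 (median 0.18), 1 of them at an unadjusted p under 0.05, the chemokine CCL21 with 10.03 ± 0.53 in mated and 9.34 ± 0.45 in control arrays. Levels of 2 of the 6 genes were below 5. Means of the lymphatic list overlapped, at -0.01 to 0.61 in mated and -0.26 to 0.49 in control arrays. Its median was 0.11 without control replicates 6 and 8.

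The list of prostaglandin metabolism and receptors, to which the adrenomedullin receptor was added, had 3 of 22 genes higher and 1 lower at an unadjusted p under 0.05 (median 0.05), and those that were higher serve prostaglandin transport and the adrenomedullin receptor. CALCRL, the receptor of adrenomedullin, was at 7.70, 8.38 and 8.82 in mated arrays and at 6.84, 7.62 and 8.38 in control arrays, and control replicate 5 was again the highest control. Its partner RAMP2 was at 7.17, 7.31 and 7.71 in mated arrays and at 6.49, 7.08 and 7.35 in control arrays. SLCO2A1, which carries prostaglandins into cells for breakdown, differed by 0.62 (SE 0.24, limma adjusted p = 0.365). Without control replicates 6 and 8 RAMP2 differed by 0.28 (limma unadjusted p = 0.0610) and SLCO2A1 by 0.49 (limma unadjusted p = 0.0699). CALCRL differed by 0.72 without them (limma unadjusted p = 0.0034). The 1 lower gene was PTGES2, a prostaglandin E synthase, by -0.21 (SE 0.09), and by -0.17 without control replicate 1 (limma unadjusted p = 0.0652).

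Of 37 complement and coagulation genes 17 were above 0, 4 were higher and 2 lower at an unadjusted p under 0.05, and the median was -0.01 (above 0 under equal medians, cyclic loess and a second quantile normalization). The higher ones acted in clotting and complement, with the thrombin receptor F2R at 0.52 (SE 0.22) beside those that follow. TFPI, the inhibitor of the tissue factor pathway, averaged 5.68 ± 0.48 in mated and 5.05 ± 0.38 in control arrays, F8, clotting factor VIII, 8.13 ± 0.35 in mated and 7.54 ± 0.45 in control arrays, and C4A, complement component 4, 8.62 ± 0.37 in mated and 8.12 ± 0.39 in control arrays. Mated arrays lay above the control median in 8, 7 and 7 of 8 for TFPI, F8 and C4A. The 9 fibrinolysis genes had a median of -0.19, with 8 of 9 below 0, and 2 were lower at an unadjusted p under 0.05, PLAU and CPB2, an inhibitor of fibrinolysis, by -0.29. Array means of that list were -0.45 to 0.04 in mated arrays, -0.41 to -0.05 in 6 control arrays and 0.51 and 0.59 in control replicates 6 and 8, and without those the list median was -0.06.

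Matrix genes were above 0 in 22 of 28 cases, with a median of 0.12 and 2 genes, MFAP5 and TNC, at an unadjusted p under 0.05. Over all genes 41.5% were above 0. The mean level of the list was 9.38, and all genes from 9 up had a median of 0.03, with 3.65% higher at that threshold. LOX, which cross-links collagen and elastin, differed by 0.42 (SE 0.28) and ASPN, the proteoglycan asporin, by 0.44 (SE 0.33). With each gene centred on its mean in the control arrays, list means were -0.14 to 0.39 in mated and -0.52 to 0.33 in control arrays. The lowest were control replicates 3 and 1 and mated replicate 3. Without control replicate 1 the median was 0.07. The smooth muscle list had a median of 0.04 with 0 of 17 genes at an unadjusted p under 0.05.

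The multiciliated list was below 0 in 24 of 25 genes, with a median of -0.23, although 0 of its genes had an unadjusted p under 0.05. FOXJ1, the master regulator of motile cilia, was at 6.56, 7.27 and 8.13 in mated arrays and at 6.90, 7.60 and 8.20 in control arrays, a difference of -0.34 (SE 0.20). Cilia genes vary together between arrays, so that 24 genes of 1 sign do not count as 24 observations. Means of the list per array lay between -0.90 (mated replicate 6) and 0.58 (mated replicate 3) in mated arrays and from -0.43 (control replicate 6) to 0.81 (control replicate 5) in control arrays. The groups overlapped over most of that range.

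Secretory epithelium was less uniform, with 13 of 21 genes below 0 and a median of -0.09, which was above 0 without control replicates 6 and 8. EPCAM, the adhesion protein of epithelial cells, was at 8.59, 9.82 and 10.01 in mated arrays and at 9.47, 10.09 and 10.42 in control arrays, a difference of -0.41 (SE 0.19) and the 1 gene of the list at an unadjusted p under 0.05. Without control replicates 6 and 8 EPCAM differed by -0.38 (limma unadjusted p = 0.0926). Mated replicates 4 and 6 were lowest in EPCAM, at 8.59 and 8.95. The same arrays had the lowest means among mated arrays of the multiciliated list (-0.76 and -0.90) and of the secretory list (-0.70 and -1.10), and the highest means of all 16 arrays of the smooth muscle list (0.65 and 0.67). GABRP was also lowest in them, at 3.97 and 4.79. The part of this shift between epithelium and muscle in the lower GABRP and EPCAM of mated arrays was not tested. Tight junction genes were below 0 in 12 of 17 cases (median -0.13), with CLDN17 lower and CLDN5, the claudin of endothelium, higher by 0.33 at an unadjusted p under 0.05. CLDN17 differed by -0.19 without control replicate 1 (limma unadjusted p = 0.0925). CLDN5 differed by 0.23 without control replicates 6 and 8 (limma unadjusted p = 0.157).

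**Figure D4:**
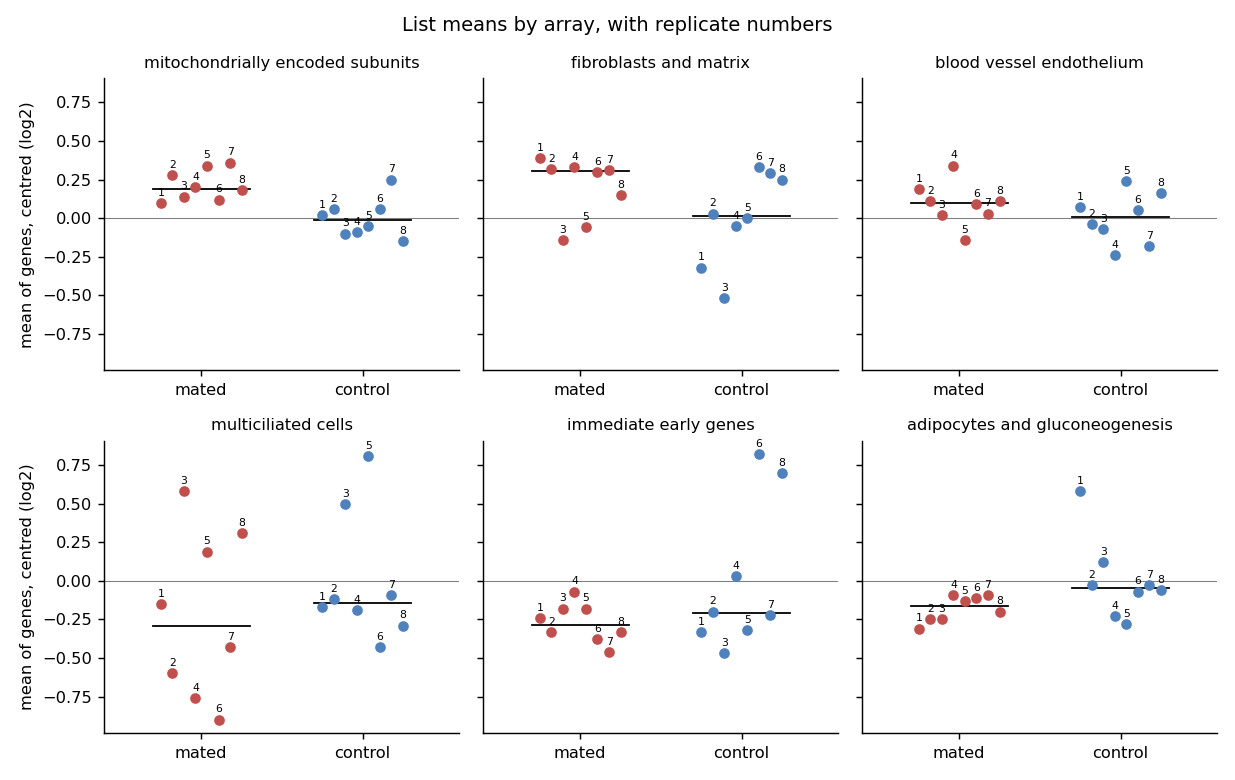
Points are the means over the genes of a list for 8 mated and 8 control arrays, numbered by replicate. Each gene is centred on its mean over the 8 control arrays (log2, vertical axis), and lines are group medians. All 8 mated arrays of the mitochondrially encoded list lie at 0.10 or above, and control replicates 6 and 8 stand alone at 0.82 and 0.70 in the immediate early list.

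All 8 measured genes encoded by the mitochondrial genome were above 0, with a median of 0.15, and 3 of them were higher at an unadjusted p under 0.05. ND3, of complex I, was at 12.11, 12.41 and 12.58 in mated arrays and at 11.96, 12.05 and 12.29 in control arrays. Mated replicate 4 alone overlapped control arrays, and the other 7 mated arrays were at 12.36 or above. CYTB, of complex III, averaged 12.75 ± 0.10 in mated and 12.57 ± 0.12 in control arrays, and ND2 7.44 ± 0.16 in mated and 7.00 ± 0.40 in control arrays. COX1, of complex IV, and ND5, of complex I, differed by 0.03 and 0.05 (both chosen after their values were seen). List means were 0.10 to 0.36 in mated arrays and -0.15 to 0.25 in control arrays, where control replicate 7 was the highest. Of the nuclear-encoded subunits of the respiratory chain 26 of 51 were above 0, with 1 higher and 1 lower at an unadjusted p under 0.05 and a median of 0.01 (below 0 under cyclic loess and a second quantile normalization).

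Cytosolic ribosomal protein genes were below 0 in 32 of 42 cases, with a median of -0.09, and 8 were lower at an unadjusted p under 0.05 against 0 higher. Over all genes 58.5% were below 0 and 7.31% lower at that threshold, and 5.53% were lower among genes at a level of 5 or above. RPL19 averaged 9.34 ± 0.20 in mated and 9.57 ± 0.15 in control arrays, and RPL10A 9.56 ± 0.33 in mated and 9.94 ± 0.27 in control arrays, with 7 of 8 mated arrays below the control median in each. Both belong to the large subunit. Without control replicates 6 and 8 RPL19 differed by -0.19 (limma unadjusted p = 0.0777) and RPL10A by -0.31 (limma unadjusted p = 0.0759). Only 3 of the 42 genes were below a level of 5. Control replicate 1 had the lowest list mean (-0.41), and without it the list median was -0.16. With equal array medians it was -0.03, and without control replicates 6 and 8 it was -0.05. Proteasome genes had a median of -0.04 (0.02 with equal medians) with 2 of 30 lower and 0 higher at an unadjusted p under 0.05.

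Immediate early genes, which stimuli switch on within minutes to hours, were below 0 in 20 of 21 cases, with a median of -0.27, and 4 were lower and 0 higher at an unadjusted p under 0.05. Means of the list were -0.46 to -0.07 in mated arrays, -0.47 to 0.03 in 6 control arrays and 0.82 and 0.70 in control replicates 6 and 8. NR4A3, an orphan nuclear receptor chosen after its values were seen, was at 3.78 to 5.32 in mated arrays, at 3.94 to 4.86 in the same 6 control arrays and at 6.86 and 6.88 in control replicates 6 and 8. NR4A2, of the same family, was at 4.57, 4.92 and 5.11 in mated arrays and at 4.91, 5.18 and 5.93 in control arrays. DUSP2, a phosphatase that switches off MAP kinases, was at 3.58, 3.89 and 4.32 in mated arrays and at 3.72, 4.15 and 5.13 in control arrays. Without control replicates 6 and 8 the differences were -0.09 for NR4A3, -0.23 for NR4A2 (limma unadjusted p = 0.0726) and -0.24 for DUSP2 (limma unadjusted p = 0.118), and the list median was -0.05.

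Genes of adipocytes and of gluconeogenesis were below 0 in 12 of 14 cases, with a median of -0.12, and 4 were lower at an unadjusted p under 0.05, FBP2, PCK1, LEP and CIDEC. CIDEC, a lipid droplet protein of fat cells, averaged 4.13 ± 0.23 in mated and 4.61 ± 0.40 in control arrays and was highest, at 5.46, in control replicate 1. The list mean was -0.31 to -0.09 in mated arrays, -0.28 to 0.12 in the other control arrays and 0.58 in control replicate 1. Levels of 8 of the 14 genes were below 5, LEP and PCK1 among them. The fat cell marker PLIN1, a lipid droplet coat protein chosen after its values were seen, differed by -0.18 and was at 4.44 to 4.80 in mated arrays and at 5.71 in control replicate 1. Without that array PLIN1 differed by -0.05 and the list median was -0.05, and under cyclic loess the list median was -0.02. The part of fat tissue in that array was not tested.

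Keratins had 6 of 22 genes lower and 0 higher at an unadjusted p under 0.05 (median -0.19), and 16 of the 22 were below a level of 5. Those that were lower were mostly keratins of hair and skin, KRT28, a keratin of the hair follicle, at 3.88 ± 0.21 in mated and 4.39 ± 0.25 in control arrays among them. KRT5, a keratin of basal epithelial cells chosen after its values were seen, was at 8.25 and 8.79 in mated replicates 3 and 8, at 3.53 to 5.69 in the other mated and at 4.13 to 5.25 in control arrays. S100A12, a calcium-binding protein of neutrophils chosen in the same way, was at 10.28 and 8.60 in the same 2 mated arrays, at 3.92 to 5.03 in the other mated and at 4.01 to 5.70 in control arrays. Without mated replicates 3 and 8 both were lower in mated arrays, by -0.14 for KRT5 and -0.25 for S100A12.

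Sperm and testis transcripts, which sperm left in the reservoir could carry, lay mostly below 0. Of 43 measured genes 30 were below 0 (median -0.11), with 5 lower and 1 higher at an unadjusted p under 0.05, and 31 were below a level of 5, where 12% of all genes were lower and the median was -0.09. With equal array medians the list median was -0.05. The 1 higher gene was AKAP3, an anchoring protein of the sperm tail, with 5.33 ± 0.26 in mated and 5.04 ± 0.18 in control arrays. TNP1, the transition protein of sperm chromatin, averaged 2.83 ± 0.15 in mated and 2.98 ± 0.19 in control arrays, and AKAP4, of the sperm tail, 5.51 ± 1.21 in mated and 6.19 ± 0.42 in control arrays, both chosen after their values were seen. Mated replicates 3 and 5 were lowest in AKAP4, at 3.67 and 3.87.

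Immune lists were divided. Genes of MHC class II presentation were above 0 in 11 of 13 cases (median 0.15), 1 of them at an unadjusted p under 0.05. The class II list mean was 0.66 in mated replicate 3, -0.28 to 0.25 in the other mated arrays and -0.40 to 0.25 in control arrays. Without mated replicates 3 and 8 its median was 0.08. The class I list had a median of 0.05. Cytokines and their receptors split evenly, 23 above and 23 below 0 (median -0.01, above 0 under equal medians, cyclic loess and a second quantile normalization), with 1 higher and 5 lower at an unadjusted p under 0.05. Of these 46 genes 21 were below a level of 5, where 12% of all genes were lower. IL33, an alarm cytokine of epithelium and endothelium, was at 6.95, 7.83 and 8.49 in mated arrays and at 6.34, 7.02 and 8.26 in control arrays. OSM, the macrophage cytokine oncostatin M, averaged 4.50 ± 0.25 in mated and 4.83 ± 0.23 in control arrays. Interferon-stimulated genes had a median of -0.06 (0.01 after a second quantile normalization), with OASL, a sensor-linked antiviral protein, higher by 0.45 and IRF7, an interferon regulator, lower by -0.27 at an unadjusted p under 0.05. Without mated replicate 3 and control replicates 1 and 3 OASL differed by 0.33 (limma unadjusted p = 0.160). Without control replicates 6 and 8 IRF7 differed by -0.18 (limma unadjusted p = 0.0621). Macrophage genes had 0 of 25, and neutrophil genes 1 of 11, at that threshold.

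Wnt pathway genes were below 0 in 27 of 38 cases (median -0.11), with 5 lower and 1 higher at an unadjusted p under 0.05. Over all genes 7.31% were lower and 2.92% higher, and 8 of the 38 were below a level of 5, WNT11 among them. Of the lower ones 4 were Wnt ligands, and the higher one was the receptor FZD4. WNT11, a ligand of the planar polarity branch, averaged 4.11 ± 0.17 in mated and 4.43 ± 0.26 in control arrays, and WNT3 5.65 ± 0.17 in mated and 6.00 ± 0.30 in control arrays, with all 8 mated arrays below the control median in both. In the antioxidant list, SOD2, the mitochondrial superoxide dismutase, differed by -0.45 (SE 0.16) and CAT, catalase, by 0.42 (SE 0.17). CAT was at 9.42 to 10.65 in mated arrays, at 9.37 to 9.86 in 7 control arrays and at 8.57 in control replicate 1, and without that array it differed by 0.27 (limma unadjusted p = 0.0554).

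Micro-RNA genes numbered 161, of which 102 were below 0, 17 lower and 3 higher at an unadjusted p under 0.05, with a median of -0.05 (above 0 with equal medians, cyclic loess and a second quantile normalization), and 118 were below a level of 5, where 12% of all genes were lower. MIR24-2 was the member with the lowest p on the higher side, at 3.60, 3.84 and 4.61 in mated arrays and at 2.90, 3.48 and 4.21 in control arrays. The array was not designed for mature micro-RNAs. Numbered zinc finger genes had 9 of 137 higher and 9 lower at an unadjusted p under 0.05, against 2.92% higher and 7.31% lower over all genes. Genes of mitosis had a median of -0.09 with 0 of 49 at an unadjusted p under 0.05, over array means of -0.78 to 0.60 in mated and -1.02 to 0.81 in control arrays. DNA replication genes had a median of -0.12, with 1 of 30 lower.

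**Figure D5:**
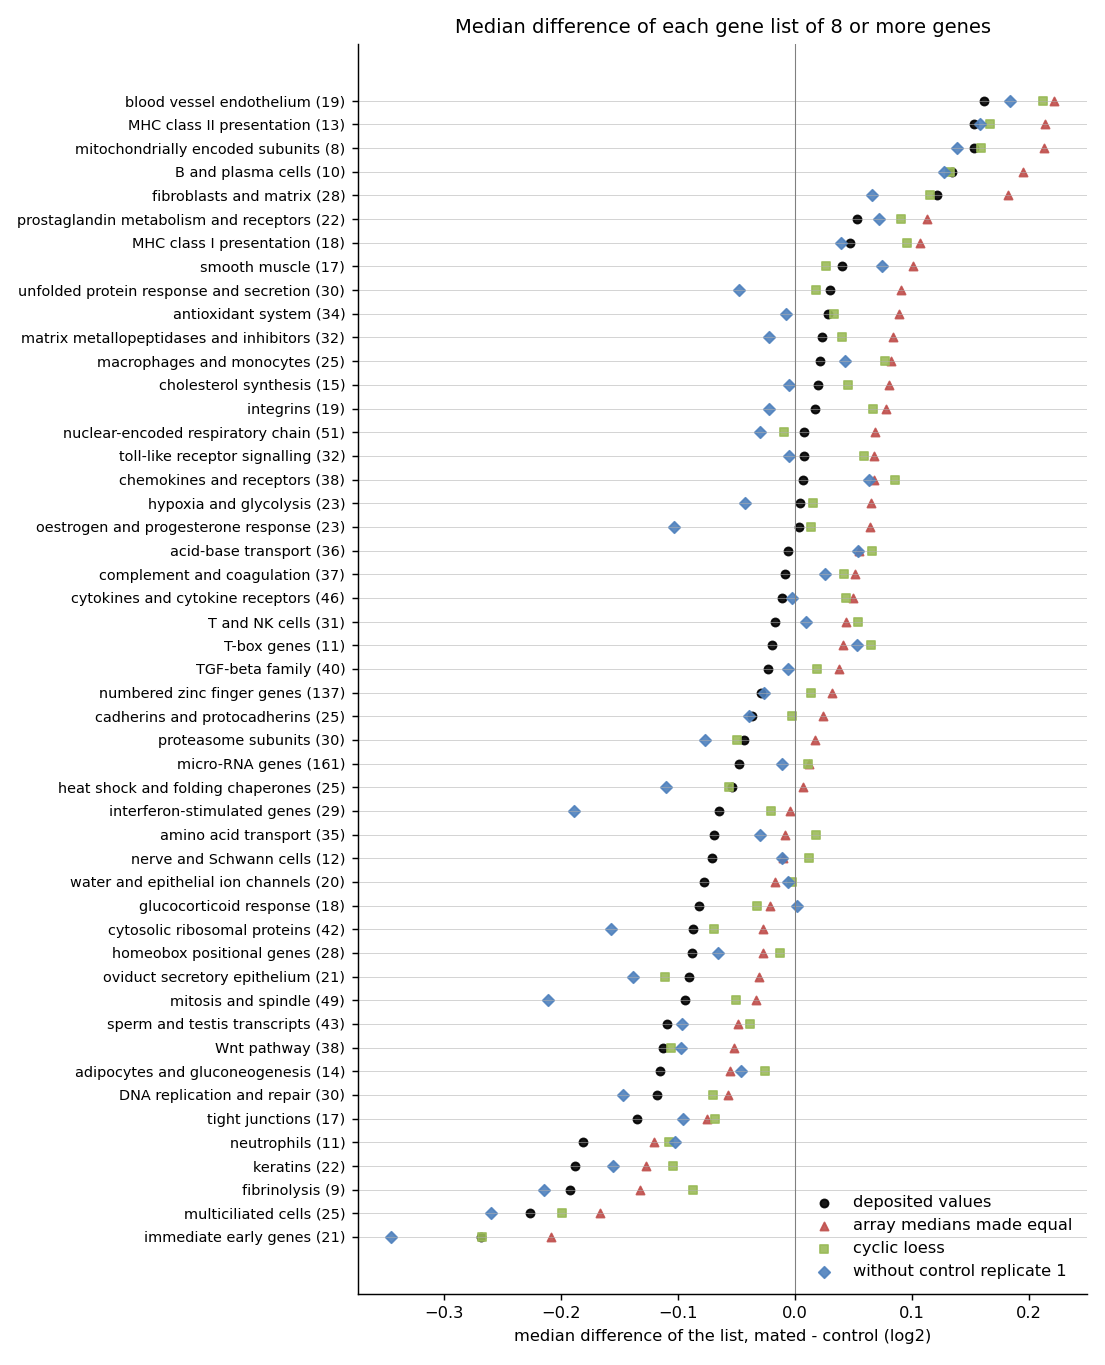
Each row is a gene list with its number of measured genes, and points are its median log2 difference (mated minus control, horizontal axis) from the deposited values, with array medians made equal, after cyclic loess and without control replicate 1. Vessel, matrix and mitochondrially encoded lists lie above 0 and multiciliated and immediate early lists below 0 under all 4 settings, and many lists between -0.1 and 0.1 lie on both sides of 0.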

How the data were processed

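RNA from 24 UTJ samples, 8 a group, was hybridised to single-colour Affymetrix Porcine Gene 1.0 ST arrays. The authors deposited log2 intensities after robust multi-array average (RMA) background correction, quantile normalization and summary by probe set. RMA and limma are named in the submitters' notes, and their versions and the genome build are not given in the sources used here. Raw intensities and detection calls were not used here, and the number of arrays limits the precision.

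A linear model with 1 mean for each of the 3 groups was fitted in limma 3.58.1 (R 4.3.3) to 27558 probe sets on 24 arrays, with no covariate, and mated minus control was tested with moderated statistics and Benjamini-Hochberg adjustment over all probe sets at 0.05. A gene was represented by the probe set with 1 symbol and the highest mean, named by GEO's platform annotation, and 11940 of 12365 genes matched RefSeq by gene number. Values are arrays' log2 levels, and errors are SD over 8 arrays or SE from the model. The p-values measure the spread between these arrays, which share sows, since by the methods each group held 4. The fit was tested on simulated data. Named genes were the 12 with the lowest p and the 10 with the largest difference at an unadjusted p under 0.05 in each direction, up to 4 with the lowest p in each list, and those without overlap. Genes without a name of their own were left out. The comparison, 56 lists (54 with a measured gene) and rules were chosen with earlier results of these data known. Alternatives were other scalings, a filter on low means, other probe set rules, other models and leaving out arrays, and 3 sets of arrays were chosen for leaving out after seeing the data. Replicate numbers only name arrays here. Deviations of equally numbered arrays correlated from -0.306 to 0.502.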

Additional observations from a re-analysis of the deposited data

Results flagged for a closer look

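In 16 of the 188 groups of 8 arrays examined for the named genes, 1 array stood far from the other 7 (its gap over the range was above Dixon's critical value). Chance flags about 1 in 20 groups, but these genes were chosen for their differences or, like AGTR2, for an array apart, so the count has no simple chance level. Mated replicate 3 accounted for 5 of these. In that array ZNF404 was low at 4.02 (other mated arrays 5.01 to 5.53), UQCR10 low at 5.23 (6.65 to 7.08), PLAU high at 8.12 (6.13 to 7.05), AGTR2 low at 5.44 (9.78 to 11.38) and ASPN low at 8.34 (9.79 to 10.67). Control replicate 1 accounted for 3, with KRT34 high at 5.24 (other control arrays 4.59 to 4.81), STAM low at 7.11 (7.41 to 7.59) and CAT low at 8.57 (9.37 to 9.86).

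Mated replicate 7 was low in CREBZF at 6.55 (other mated arrays 7.02 to 7.24) and high in MDFIC at 8.61 (7.56 to 8.02). Mated replicate 8 was high in CPB2 at 4.01 (3.18 to 3.57) and in IRF7 at 6.15 (5.69 to 5.89). TERB2 was high in mated replicate 2 at 3.03 (2.53 to 2.63), ND3 low in mated replicate 4 at 12.11 (12.36 to 12.58), and HRH1 high in mated replicate 5 at 7.99 (6.76 to 7.30). FZD4 was high in control replicate 7 at 7.85 (other control arrays 6.81 to 7.22).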

How the results depend on the processing

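No gene passed an adjusted p of 0.05 in any alternative run, and probe sets that passed numbered 0 to 2 with 1 array left out (2 without control replicate 7, 1 without mated replicate 2). Of 94 genes followed through the alternatives, 92 kept their direction in every alternative. At an unadjusted p under 0.05, with 1 array left out, probe sets numbered 552 to 941 higher and 1594 to 3165 lower, and genes 238 (without mated replicate 7) to 450 (without mated replicate 3) higher and 609 (without control replicate 1) to 1226 (without control replicate 5) lower. Genes without overlap numbered 1 to 5 higher (5 without mated replicate 3) and 7 to 23 lower (23 without control replicate 5, 14 without mated replicate 2 or 4). Restricting the fit to means of 5 or more left 1289 probe sets and 491 genes lower. With equal array medians 1543 probe sets were higher and 1154 lower, 735 genes higher and 427 lower, and 2 genes lower without overlap. Cyclic loess gave 1304 probe sets higher and 1437 lower, 568 genes higher and 547 lower, and 2 genes higher without overlap. A second quantile normalization gave 1222 probe sets and 541 genes higher, 1567 probe sets and 600 genes lower, and 3 genes lower without overlap. The last 3 sets of arrays were chosen after seeing the data. Without control replicates 6 and 8, 3 genes were higher without overlap. Without mated replicates 3 and 8, 8 genes were higher and 17 lower without overlap, and the signs of S100A12 (-0.25) and KRT5 (-0.14) were reversed. Without mated replicate 3 and control replicates 1 and 3, 1478 probe sets and 566 genes were lower, and 13 genes higher and 11 lower without overlap. The replicate number as a block gave 375 genes higher and 854 lower, 839 probe sets higher and 2215 lower, and 0 with an adjusted p under 0.05. Equally numbered arrays correlated above 0.1 in 4 of 8 numbers, and 1 of 8 mated arrays was nearest to the control array of its own number. The cause of these differences was not tested.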

Other observations

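Deviations of arrays from their group means, correlated over probe sets, show which arrays lie close together. Among mated arrays the closest pairs were replicates 4 and 6 (0.204), 3 and 8 (0.143) and 3 and 5 (0.137), followed by 1 and 2 (0.0862), so that they do not all form separate pairs. In control arrays they were replicates 2 and 4 (0.376), 6 and 8 (0.273) and 1 and 3 (0.248). Several patterns described above follow such pairs, among them the immediate early genes in control replicates 6 and 8, INMT in control replicates 1 and 3, the low epithelial lists in mated replicates 4 and 6 and S100A12 and KRT5 in mated replicates 3 and 8. Whether a pair is the left and right UTJ of 1 sow was not tested, since no source used here ties arrays to sows.

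The precision is that of 8 arrays a group, and of fewer animals than arrays. Control arrays had the larger SD in 62.1% of genes, with a median SD over genes of 0.223 in mated and 0.269 in control arrays. Genes below a level of 5 made up 408 of the 904 lower genes, and neither scaling nor array choice was settled by an independent measure.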
